A study of Ovis aries with 24 samples.

Results

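The epithelium of the abomasum was compared with that of the 3 forestomachs (rumen, reticulum and omasum) in lambs at d10. The 3 abomasum libraries and the 9 forestomach libraries (3 per chamber) were taken by the tissue and age in their labels, and make up 12 of the 24 libraries of the series. The other 12 libraries are the same 4 chambers at d5, again with 3 libraries per chamber. Each value is a count of sequencing reads per gene, and all groups are sheep (Ovis aries) without any treatment given in the labels. After slaughter the epithelium was separated from the muscle layer (for the rumen, that of the ventral sac), and total RNA was extracted. The study's methods describe male Hu lambs raised with the ewe for the rumen samples at d5; breed, sex and diet of the d10 lambs were not stated. No label says whether libraries with the same number came from the same lamb, so p-values measure only the spread between these samples.

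The rumen, reticulum and omasum are lined by a stratified squamous epithelium without glands, which forms papillae, ridges or leaves and takes up fermentation products once solid feed is eaten. The abomasum is the true, glandular stomach. Its mucosa holds mucous cells, parietal cells that release acid, chief cells that release pepsinogen and, in the suckling lamb, prochymosin, and endocrine cells. In the first days of life milk passes the forestomachs through the esophageal groove, and the abomasum does the gastric digestion.

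Of 27054 gene identifiers listed, 5331 had 0 counts in all 12 libraries, and 15772 had enough counts to be tested. The files give Ensembl identifiers only and do not pair them with symbols, and 0 identifiers matched the reference table of 35057 genes. The labelled tissues could therefore not be checked against markers of mucous, parietal, chief, squamous, muscle or blood cells. Genes are described as groups and by rank, with 2 identifiers given in each direction. In bulk tissue, fewer cells of a type and less RNA per cell cannot be told apart.

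Total counts were 15077755 to 15720704 in the abomasum and 13508243 to 18464144 in the forestomachs. Across genes, Pearson r of log2(CPM + 1), where CPM is the count scaled to a library total of 1e6, was 0.681 to 0.776 between abomasum and forestomach libraries. It was 0.899 to 0.976 between different forestomach chambers and 0.941 to 0.984 within a chamber; genes are not independent replicates. The median SD of log2 CPM among the 3 libraries of a group was 0.386 in the abomasum, 0.188 in the rumen, 0.317 in the reticulum and 0.205 in the omasum, over 11694 genes with a mean of at least 5 CPM.

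A pair of libraries stood apart. Reticulum library 3 was closer to the rumen libraries (r of 0.948 to 0.958) than to reticulum libraries 1 and 2 (0.941 and 0.943). Nearness to another chamber was not particular to it. Reticulum libraries 1 and 2 had an r of 0.964 with each other and of 0.955 to 0.976 with the omasum libraries. Abomasum library 2 differed from abomasum libraries 1 and 3 in the most abundant abomasal genes, as given below. The counts of genes called against the mean and against all 3 chambers are given with and without each of these libraries. Other results include both libraries unless stated.

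The abomasum put a far larger part of its mRNA into few genes. Its 10 most abundant genes took 30.2% to 34.6% of the counts, against 6.86% to 11.5% for the 10 most abundant genes of each forestomach library. The single most abundant gene took 9.03% to 11.4% of an abomasum library and 1.31% to 4.11% of a forestomach library. In the abomasum, 129 to 159 genes held 50% of all counts, against 437 to 848 genes in the forestomachs. Fewer genes reached 1 CPM in the abomasum (12534 to 13462) than in the forestomachs (13723 to 14662), and the ranges did not overlap. Where a few genes take many reads, the same number of transcripts of another gene gives a lower CPM. Trimmed mean of M-values (TMM) factors, which assume that most genes do not differ, were 0.614 to 0.732 for the abomasum and 0.949 to 1.24 for the forestomachs. TMM moved the median gene further than leaving out the most abundant genes did, as given below. The cause of the remaining shift was not tested. CPM is not divided by transcript length, so that levels are compared between libraries and not between genes.

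Against the mean of the 3 forestomachs, with each chamber given equal weight, 7890 of 15772 genes (50%) differed significantly (edgeR quasi-likelihood test, two-sided, Benjamini-Hochberg adjusted p under 0.05). Of these, 4066 genes (25.8% of those tested) were higher and 3824 (24.2%) were lower in the abomasum. The median log2 fold change over all genes tested was -0.06, with quartiles of -0.78 and 0.64. The higher genes took 65.3% to 71.2% of the counts of the abomasum libraries and 17.98% to 20.9% of those of the forestomach libraries. The lower genes took 4.08% to 5.42% in the abomasum and 30.8% to 35.6% in the forestomachs. These calls choose the genes by the same counts, so that the shares only show how much of each library the difference covers. Without abomasum library 2 the count was 6349, and without reticulum library 3 it was 8427.

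**Figure D1:**
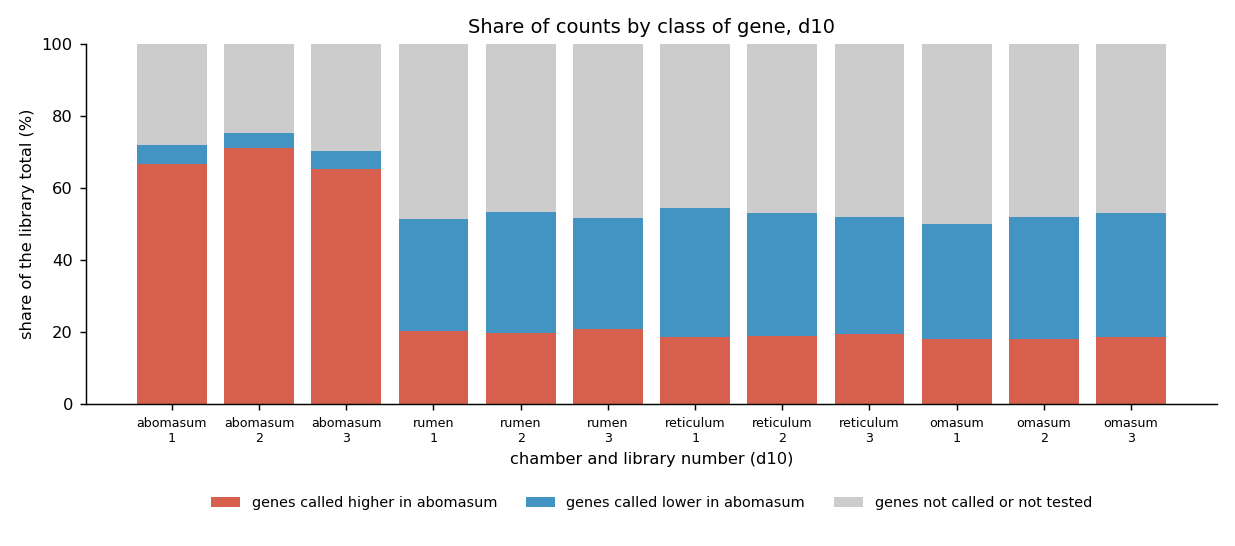
Share of the library total (%, y axis) held by genes called higher in the abomasum (red), genes called lower (blue) and all other genes (grey), in each of the 12 d10 libraries (x axis, chamber and library number). The red part covers 65.3% to 71.2% of the 3 abomasum libraries and at most 20.9% of the 9 forestomach libraries.

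The split into higher and lower genes depended on the scaling. With TMM, 51.5% of the called genes were higher in the abomasum. With library sizes computed without the 13 genes that exceed 1% of a library, 37.2% were higher (3041 higher and 5132 lower), and the median over all genes moved to -0.33. With CPM over the library total the median was -0.74. Directions given here are thus relative to the median gene under TMM. Small changes may take the other direction under another scaling, whereas changes of 4-fold or more lie well beyond these shifts.

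Among the called genes, the size of the change ran from slight to over 4096-fold. At least 4-fold changes were found for 1274 higher and 1531 lower genes, at least 16-fold for 499 and 514, at least 256-fold for 129 and 108, and at least 4096-fold for 28 and 2. Here a group at 0 counts was set to 3 counts over the group, which makes the fold a lower bound. Counts of such bounds do not rank the directions: at 64-fold they were 259 higher and 208 lower genes, whereas the fitted changes, which depend on the prior count, gave 262 and 304. The median log2 fold change was 1.32 for higher and -1.58 for lower genes. The share of genes called was 34.4% below 1 CPM and 59.2% at 256 CPM or more. The level here is the midpoint of the abomasum mean and the mean of the 3 chamber means. In these classes the median absolute log2 fold change was 1.18 and 0.79, so that the calls also follow depth.

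The 10 most abundant genes of the abomasum were all higher there than in each of the 3 chambers. Together they took 29.9% to 34.5% of the abomasum counts and 0.465% to 0.957% of the forestomach counts. The first had 113900, 46670 and 106700 CPM in abomasum libraries 1, 2 and 3, and 0.217 to 36.8 CPM (median 17.3) in the 9 forestomach libraries, with a log2 fold change of 13.22 ± 1.24 (SE, adjusted p = 2.71e-06, edgeR). The second had 53840, 36040 and 60150 CPM, against 0.704 to 13.7 CPM (log2 fold change 13.84 ± 0.89, adjusted p = 1.16e-07, edgeR). For 8 of the 10, the lowest abomasum library stood far above the highest forestomach library. The remaining pair, ranks 6 and 10, was abundant on both sides. The gene of rank 6 had 36710, 9374 and 18570 CPM in the abomasum and 291 to 3057 CPM in the forestomachs. The gene of rank 10 had 10940, 4753 and 8269 CPM, against 4153 to 6689 CPM. By CPM its libraries overlapped, and its log2 fold change of 1.30 ± 0.24 (adjusted p = 0.000769, edgeR) holds for the TMM scale.

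The 10 most abundant genes of the forestomachs were less exclusive. They took 6.50% to 10.9% of the forestomach counts and 1.14% to 1.74% of the abomasum counts. Of these genes, 5 were lower in the abomasum than in all 3 chambers, 1 was higher (the gene of rank 10 above) and 4 did not pass the test against every chamber. The first had 13070 to 34890 CPM (median 25230) in the forestomachs and 25.1, 6.57 and 18.4 CPM in the abomasum, with a log2 fold change of -9.86 ± 0.66 (adjusted p = 1.59e-07, edgeR). The second had 3117 to 41150 CPM in the forestomachs and 20.4, 3.32 and 14.8 CPM in the abomasum (-10.12 ± 1.04, adjusted p = 5.98e-06, edgeR). Both were at their lowest in abomasum library 2. The gene of rank 3 had 4782 to 7805 CPM in the forestomachs and 2932, 2063 and 3714 CPM in the abomasum, where the lower CPM was not a significant difference after scaling (-0.30 ± 0.26, adjusted p = 0.369, edgeR).

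**Figure D2:**
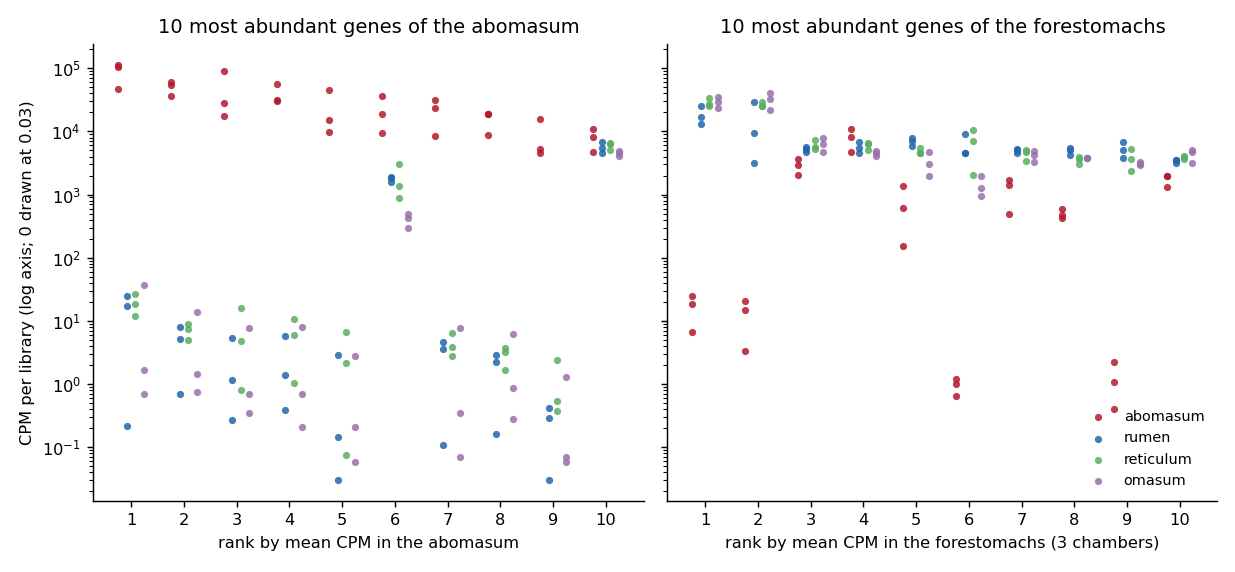
CPM in each of the 12 d10 libraries (y axis, log scale; 0 drawn at 0.03) for the 10 most abundant genes of the abomasum (left) and of the forestomachs (right), by rank of mean CPM (x axis); 1 point is 1 library. On the left 8 of 10 genes are separated by several orders of magnitude, and on the right 4 are (ranks 1, 2, 6 and 9).

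Abomasum library 2 held these genes in other proportions than libraries 1 and 3. The genes of ranks 3, 4, 5 and 9 were highest in library 2: the gene of rank 3 had 28670, 90300 and 17340 CPM in libraries 1, 2 and 3, and that of rank 5 had 15380, 45430 and 9676 CPM. The other 6 (ranks 1, 2, 6, 7, 8 and 10) were lowest there, with 31250, 8492 and 23610 CPM for rank 7. Among 28 genes with a mean of at least 1000 CPM that were at least 16-fold higher and passed the test against all 3 chambers, 7 were in library 2 over 2 times the mean of libraries 1 and 3, and 7 were under 0.5 times that mean. The summed CPM of the first 7 divided by that of the other 7 was 0.257, 2.11 and 0.202 in libraries 1, 2 and 3. These 14 genes were chosen after their values were seen. In the d5 abomasum, which had no part in that choice, the same ratio was 0.129, 0.422 and 0.0577 in libraries 1, 2 and 3.

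By the criteria for named genes, 1102 higher and 1587 lower genes of 15772 tested qualified. The criteria ask for no overlap by CPM over the library total, a scale on which 1272 genes lay higher and 6040 lower. The numbers that qualified thus do not rank the directions. The 2 genes with the largest fitted change in each direction are given by identifier. The mRNA of ENSOARG00000002786 had 184, 704 and 353 CPM in the abomasum and a single count in the 9 forestomach libraries together, in rumen library 3. On the TMM scale the ratio was 98540, with a 95% counting interval of 17680 to 3892000, and the adjusted p against the mean was 2.23e-07 (edgeR). In the d5 libraries it had 56.8 to 186 CPM in the abomasum and at most 0.134 CPM in rumen and reticulum. In omasum d5 libraries 1, 2 and 3 it had 12.2, 157 and 0.0623 CPM.

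The mRNA of ENSOARG00000014490 had 227, 459 and 268 CPM in the abomasum and likewise 1 count in the forestomachs (ratio 75790, counting interval 13600 to 2994000; adjusted p = 4.07e-08, edgeR). At d5 it had 53.9 to 119 CPM in the abomasum and at most 0.0708 CPM in rumen and reticulum. In omasum d5 libraries 1, 2 and 3 it had 2.34, 40.7 and 0.0623 CPM. Both genes were highest in abomasum library 2.

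In the other direction, ENSOARG00000020466 had 34.3 to 204 CPM (median 98.6) in the 9 forestomach libraries and 0 counts in all 3 abomasum libraries. On the TMM scale it was at least 993-fold higher in the forestomachs, taking 3 counts over the 3 abomasum libraries (0.0959 scaled CPM) as the limit that a count of 0 allows (adjusted p = 5.18e-06, edgeR). ENSOARG00000010045 had 18.6 to 349 CPM (median 74.2) in the forestomachs and 0 counts in the abomasum, and was at least 909-fold higher on the same scale (adjusted p = 1.71e-05, edgeR). At d5 these genes had 26.2 to 62.7 and 13.1 to 116 CPM in rumen and reticulum, and at most 0.117 and 0.0666 CPM in the abomasum. Intervals and floors cover counting error only.

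Genes present on one side and close to absent on the other were counted separately. In every abomasum library 39 genes reached 5 CPM while no forestomach library had more than 3 counts, and 76 genes showed the reverse. Mean levels on the higher side were 8.01 to 414 CPM (median 37.2) for the 39 genes and 8.25 to 308 CPM (median 40.3) for the 76 genes. Among the forestomach chambers, 12 of the 76 genes and 0 of the 39 differed by an F test (edgeR), against 6.28% of all genes tested. At an unadjusted p under 0.05 these were 31 and 1, and the share of all genes at that threshold is not given here. DESeq2 gave 23 and 0, against 2179 of all 15772 genes tested, and limma-voom 12 and 0, against 912. The 39 genes had at most 3 counts in each forestomach library, where a difference could hardly be detected. In the d5 libraries of abomasum, rumen and reticulum, 28 of the 39 and 47 of the 76 met the same criteria. The share of all genes that met them at d5 is not given here, so both numbers are a description only. With 0 counts demanded on the lower side, 5 and 14 genes were left, and with up to 10 counts allowed, 79 and 127.

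The most abundant genes of each side left traces on the other. A set of 35 genes reached 100 CPM in all abomasum libraries and had at most 1% of the lowest abomasum value in each forestomach library. They took 30.8% to 34.2% of the abomasum counts and 0.00299% to 0.0129% of the forestomach counts, lowest in omasum library 3 and highest in reticulum library 3 and omasum library 1 (0.0124%). The corresponding 37 genes of the forestomachs took 6.72% to 11.3% of forestomach counts and 0.00485% to 0.00849% of abomasum counts, the highest in abomasum library 1. The low shares on the other side follow from how the genes were chosen, and only their order among libraries is a description. The source of the traces was not tested.

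Each chamber was then compared with the abomasum on its own. In the same fit, 6592 genes (41.8%) differed from the rumen, 6366 (40.4%) from the reticulum, and 7181 (45.5%) from the omasum. Higher in the abomasum were 3561 (22.6%), 3137 (19.9%) and 3578 (22.7%) genes against rumen, reticulum and omasum, and lower were 3031 (19.2%), 3229 (20.5%) and 3603 (22.8%). The 3 comparisons share the abomasum libraries and are not independent. Sorted by direction, 12260 genes (77.7%) had the same sign against all 3 chambers (5881 higher, 6379 lower) and 3512 had mixed signs.

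A total of 4430 genes (28.1%) passed the test in one direction against all 3 chambers, 2513 higher (15.9%) and 1917 lower (12.2%) in the abomasum. All 4430 were also called against the mean, which largely follows from the shared fit. A further 2099 genes passed against 2 chambers, 2564 against 1, and 6642 against none. Of the genes called against the mean, 7751 had the same sign against every chamber. The remaining 139 had mixed signs, and 132 of these differed among the forestomachs by the F test, against 6.28% of all genes tested. This largely follows from the choice by mixed signs in the same fit and adds no separate evidence. For the genes passing against all 3 chambers the median log2 fold change against the mean was 1.85 (higher) and -2.21 (lower), compared with 0.80 and -1.07 for genes called against the mean only or against some chambers. Without abomasum library 2 the count was 3623 (2125 higher, 1498 lower), and without reticulum library 3 it was 4702.

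Separation of the libraries was also counted directly. On the TMM scale all 3 abomasum libraries lay above all 9 forestomach libraries for 2731 genes (17.3%) and below them for 2380 (15.1%). Of the genes called against all 3 chambers, 2350 of 2513 higher genes (93.5%) and 1826 of 1917 lower genes (95.3%) were so separated. The calls used the same libraries and scale, so this largely follows from them and adds no separate evidence. By CPM over the library total the counts were 1272 (8.06%) and 6040 (38.3%), which again shows the weight of the scaling.

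**Figure D3:**
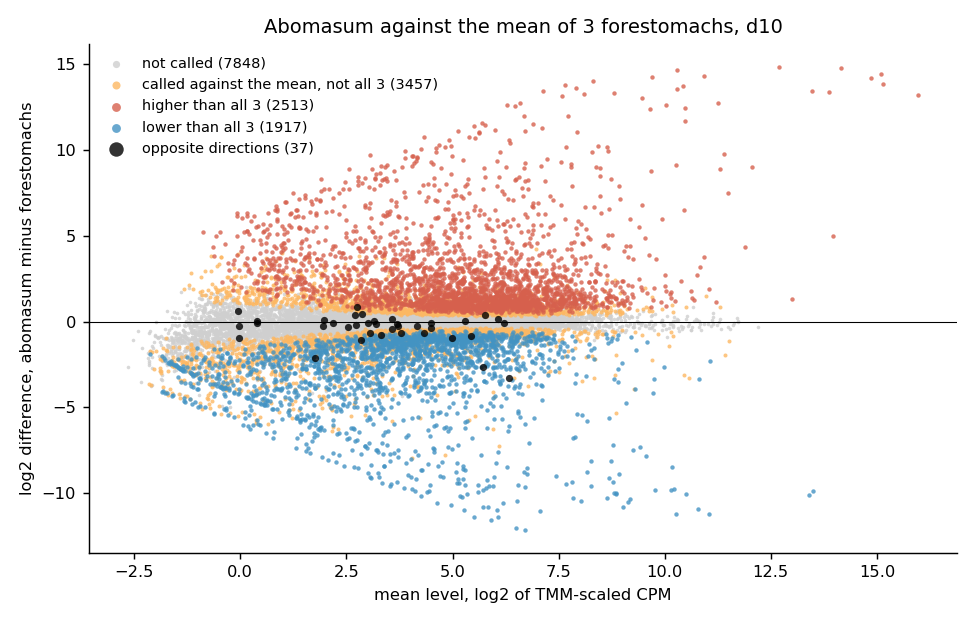
Log2 difference of abomasum minus forestomachs (y axis, each chamber weighted equally, groups at 0 set to the floor) against mean level (x axis, log2 of TMM-scaled CPM), 1 point per gene tested. The 2513 genes higher than all 3 chambers (red) lie above 0 and the 1917 lower ones (blue) below it at all levels, and the 37 genes called in opposite directions against different chambers (black) lie mostly near 0.

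The 3 forestomachs were unequal among themselves for 990 genes (6.28%) by an F test in the same fit (edgeR, adjusted p under 0.05). This count rested on single libraries: it was 1541 without reticulum library 3, 159, 280 and 246 without rumen library 1, 2 and 3, and 487, 647 and 448 without omasum library 1, 2 and 3. DESeq2 gave 2179 genes. Among genes higher than all 3 chambers 91 of 2513 were unequal, and among genes lower than all 3, 135 of 1917. For the 91 genes the chamber nearest to the abomasum was the rumen in 37, the reticulum in 13 and the omasum in 41. For the 135 genes it was the rumen in 81, the reticulum in 9 and the omasum in 45.

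Genes that passed against 2 chambers but not the remaining one were counted by that chamber. Lower genes missed the test against the rumen in 887 cases, against the reticulum in 238 and against the omasum in 221. Higher genes missed it against the rumen in 335, the reticulum in 250 and the omasum in 168. A missed threshold does not show that the levels were alike. The median log2 fold change of the 887 was -0.63 against the rumen and -2.51 against the other chambers. By the F test, 339 of the 887 (38.2%) differed among the forestomachs, against 6.28% of all genes tested. The 887 were chosen by unequal calls in the same fit, which partly sets this share. The corresponding numbers were 2 of 238 and 12 of 221 for reticulum and omasum, and 40 of 335, 4 of 250 and 27 of 168 for higher genes. The 887 became 539 without reticulum library 2, 494 with at least 10 counts demanded in every library and 564 with a minimum log2 fold change of 1. The 238 became 433 and 398 without reticulum library 1 and 2, 136 and 133 without omasum library 2 and 3, 155 without rumen library 3, and 51 with that minimum fold. With library sizes computed without the abundant genes, the numbers for rumen, reticulum and omasum were 836, 649 and 188. The 221 became 135 without reticulum library 3, 338 without omasum library 3 and 65 with the minimum fold.

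In these 339 genes, chosen by this pattern, the rumen and abomasum were both low and the reticulum and omasum both high. The median log2 level relative to the abomasum mean was -0.01, 0.11 and 0.03 in the 3 rumen libraries. It was 3.25, 3.11 and 3.90 in the omasum libraries, and 3.23, 3.54 and 1.34 in reticulum libraries 1, 2 and 3. Reticulum library 3 was the lowest reticulum library for 298 of the 339 and lay between all rumen libraries and the other reticulum libraries for 255. In the d5 libraries, which the choice did not use, the mean of the rumen was below that of the reticulum in 324 of the 339 genes. The mean of the abomasum was below that of the reticulum in 314. The share of all genes with these orders at d5 is not given here, so both numbers are a description only.

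The most abundant of the 339 in reticulum and omasum had 171, 40.5 and 75.5 CPM in the abomasum and 141, 194 and 104 CPM in the rumen. It had 6440, 7230 and 954 CPM in the reticulum and 3640, 3820 and 7150 CPM in the omasum. The log2 fold change of the abomasum was 0.17 ± 0.61 against the rumen (adjusted p = 0.842, edgeR), -5.04 ± 0.72 against the reticulum and -4.94 ± 0.72 against the omasum (adjusted p = 0.000162 and 0.00016, edgeR). The rumen and abomasum libraries overlapped for this gene, and all reticulum and omasum libraries were higher, reticulum library 3 the least.

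**Figure D4:**
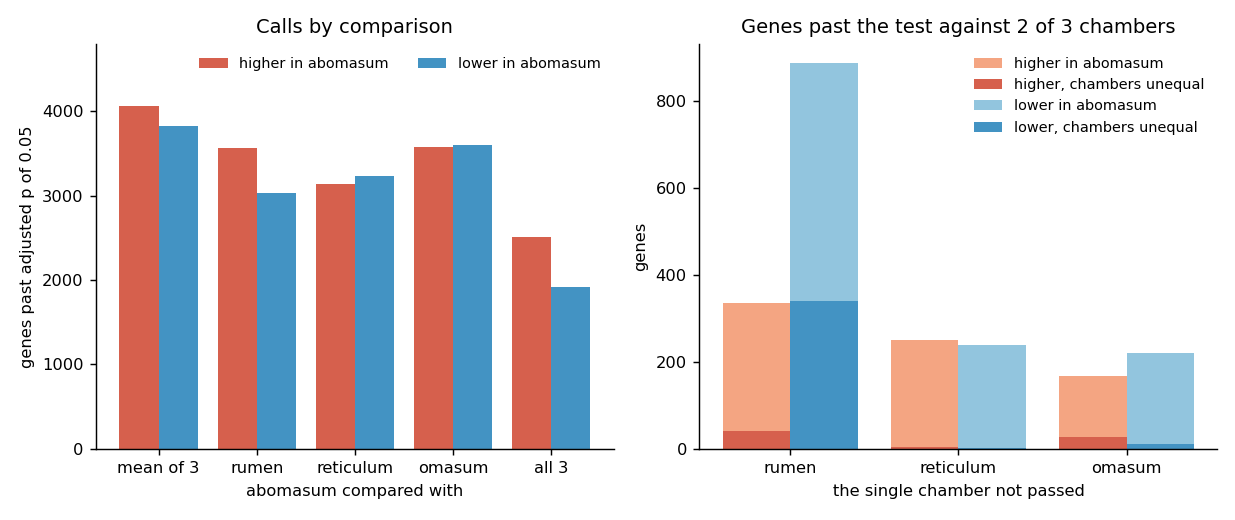
Left, genes past an adjusted p of 0.05 (y axis) against the mean of 3 chambers, each chamber and all 3 (x axis), higher (red) or lower (blue) in the abomasum. Right, genes past the test against 2 chambers (y axis) by the chamber not passed (x axis), the darker part being genes unequal among the forestomachs; the 887 lower genes not passed against the rumen, 339 of them unequal, form the tallest bar.

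For 37 genes the abomasum passed the test in opposite directions against different chambers, and in all 37 the rumen was the single chamber on one side. Against the mean of the 3 chambers, 3 of the 37 were called. In 34 genes the abomasum was higher than the rumen and lower than the omasum (19), the reticulum (2) or both (13), and in 3 genes it was lower than the rumen and higher than another chamber. The median level of the 34 genes relative to the abomasum mean was -2.41, -2.02 and -2.01 (log2) in the rumen libraries and 2.01, 1.83 and 2.20 in the omasum libraries. In the reticulum it was 1.44 and 1.64 in libraries 1 and 2, but -0.13 in library 3. Without reticulum library 3, 84 genes were called in opposite directions in place of 37. The number was 22, 19 and 20 without abomasum library 1, 2 and 3, 24 and 23 without omasum library 1 and 3, and 24 without rumen library 1.

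Of the 34 genes, the one with the highest level in the reticulum had 0, 0.325 and 0.236 CPM in the rumen and 2.72, 0.730 and 0.763 CPM in the abomasum. It had 109, 173 and 242 CPM in the omasum and 608, 380 and 68.3 CPM in the reticulum. The log2 fold change of the abomasum was 3.56 ± 0.99 against the rumen (0 to 6 counts per rumen library; adjusted p = 0.0123, edgeR), -7.32 ± 0.83 against the reticulum and -6.21 ± 0.80 against the omasum. The order of the chambers did not overlap for this gene except between reticulum and omasum. At d5 the abomasum mean was above the rumen mean in 29 of the 34 genes and below the reticulum mean in 24, with both in 19. All 3 d5 rumen libraries lay below all 3 d5 abomasum libraries in 15 of the 34. The shares of all genes with these orders are not given here, so the numbers are a description only.

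**Figure D5:**
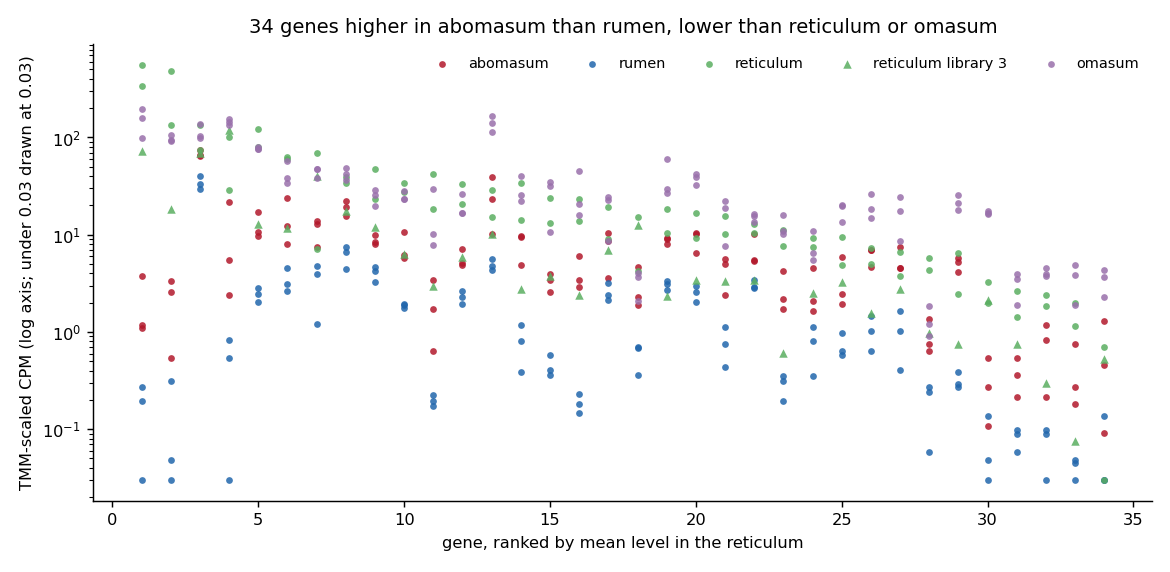
TMM-scaled CPM (y axis, log scale; values under 0.03 drawn at 0.03) of the 34 genes in which the abomasum was higher than the rumen and lower than the reticulum or omasum, ranked by mean level in the reticulum (x axis); 1 point is 1 d10 library. Reticulum library 3 (triangles) often sits with the abomasum, with a median log2 level of -0.13 relative to it, while reticulum libraries 1 and 2 have medians of 1.44 and 1.64.

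The d5 libraries, which played no part in sorting the genes, allowed the comparison to be repeated. Omasum was left out at both ages for this step, because omasum d5 libraries 1 and 2 held abomasal transcripts: ENSOARG00000002786 had 12.2 and 157 CPM there and 0.0623 CPM in library 3. In a fit of the 18 abomasum, rumen and reticulum libraries of both ages (15844 genes tested), 2512 of the 2513 higher genes were tested. Of these, 2458 (97.9%) were higher in the abomasum at d5 and 2092 (83.3%) passed the test in that direction, against 22.8% of all genes called higher at d5. Of 1906 lower genes 1839 (96.5%) were lower at d5 and 1519 (79.7%) passed, against 21.5% of all genes. In the opposite direction 5 and 3 genes passed. The median log2 fold change of the higher genes was 1.75 at d10 and 1.51 at d5, and that of the lower genes -2.21 and -1.79. These genes were chosen by their d10 values, so larger medians at d10 partly follow from the choice. Both ages share the estimate of the spread in this fit.

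The difference between abomasum and the mean of rumen and reticulum changed with age for 27 genes (0.17%; edgeR, adjusted p under 0.05), with 2091 at an unadjusted p under 0.05. It was larger in the direction of the abomasum at d10 for 21 genes and smaller for 6, by 1.40 to 5.27 on the log2 scale (median 2.31). With the replicate number as a block it was 67 genes (57 and 10), and DESeq2 gave 391 genes with a nearly even split (203 and 188). The abomasum changed more between the ages than rumen or reticulum in 17 of the 27. The share of all genes with this order is not given here. The test gives the abomasum more weight than rumen or reticulum alone, so this number is a description only. The gene with the largest difference had at most 26 counts in any of the 18 libraries. The gene with the second largest (-4.51 ± 0.85, adjusted p = 0.0491, edgeR) had 187, 278 and 73.0 CPM in the abomasum at d5 and 338, 458 and 156 CPM at d10. In the rumen it went from 1.23, 0.153 and 1.87 CPM at d5 to 43.1, 66.9 and 19.0 CPM at d10, and in the reticulum from 0.353, 0.292 and 0.425 to 5.92, 20.7 and 23.8 CPM. All rumen and reticulum libraries of d10 thus exceeded those of d5, while the abomasum libraries of the ages overlapped. The count of 27 was unstable, at 1 without abomasum d10 library 2 and 78 without abomasum d10 library 1.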

How the data were processed

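Counts of reads per gene were used as the authors deposited them, without normalization. CASAVA 1.8 and TopHat2 2.0.13 are named by the submitters' processing notes. How reads were counted, on which genome build and annotation and with which strand setting is not given in the sources used here, so that overlapping or near-identical genes may share reads. Groups came from the labels. The 12 d10 libraries were fitted together with edgeR 4.0.16 in R 4.3.3 (TMM, filterByExpr, quasi-likelihood test, 4 groups), with Benjamini-Hochberg adjustment over 15772 genes. The SE is the log2 fold change divided by the square root of F. One count was 0.0542 to 0.0740 CPM. The scripts were tested on simulated data. Pairs of libraries of a group differed by more than sampling noise (chi-square per degree of freedom 25.5 to 265).

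Named genes passed 0.05 against all 3 chambers, without overlap of the libraries by CPM and with a mean of at least 5 CPM on the higher side; the 2 with the largest fitted change in each direction were taken. Lists of genes by function were not usable without symbols. The comparison, lists and rules were chosen with earlier results of these data known. Alternatives were DESeq2 1.42.0 and its size factors, limma-voom (limma 3.58.1), other filters and scalings, robust estimation, a minimum fold, all 24 libraries, a pooled forestomach group, a replicate block, and leaving out each library. For libraries sharing a number, deviations from their group means were correlated. All 3 pairs were over 0.1 for rumen and reticulum (0.175 to 0.422), rumen and omasum (0.211 to 0.405) and abomasum and omasum (0.139 to 0.214), but 1 of 3 for the other 3 combinations. Any pairing thus comes from the data alone.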

Additional observations from a re-analysis of the deposited data

Results flagged for a closer look

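The contrast of the abomasum differed among the 3 forestomach chambers for 990 genes, by an F test on the difference itself (edgeR, adjusted p under 0.05). For 37 genes it was significant in opposite directions against different chambers. Each of the 37 also passed that F test, which largely follows from the opposite directions in the same fit and adds no separate evidence. Between d10 and d5, the contrast against rumen and reticulum differed for 27 genes by a test of the interaction. No group was large enough to screen single libraries for outliers.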

How the results depend on the processing

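Of 265 alternative values, 198 were labelled as unchanged. For counts this means within 1.5 times the value reported. For 3 alternatives of the median log2 fold change it means a shift under 0.14, the SD over the 3 abomasum libraries. No direction of a named gene was reversed. These genes were chosen for the largest changes, so a reversal was hardly possible. With a minimum log2 fold change of 1, the counts were 3252 against the mean, 2719 against rumen, 2973 against reticulum, 3468 against omasum, 1986 against all 3 chambers, 8 in opposite directions and 0 for the change with age (27 reported), and 564, 51 and 65 for lower genes missing rumen, reticulum and omasum. DESeq2 gave 2179 genes unequal among chambers, 68 in opposite directions and 391 for the change with age, and limma-voom 22 in opposite directions and 13 for age. At least 10 counts in every library gave 423 among chambers, 19 in opposite directions and 494 lower genes missing rumen. For age, the size factors of DESeq2 gave 15 genes and library sizes without abundant genes 16; the latter gave 649 lower genes missing reticulum and a median of -0.33. CPM over the library total, chosen after seeing the data, gave a median of -0.74 and 1272 and 6040 genes without overlap. Floors of 0 and 10 counts, likewise chosen, gave 5 and 14, and 79 and 127 genes. The causes were not tested.

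With the replicate number as a block, 8020 genes differed from the mean, 6664 from rumen, 6402 from reticulum, 7347 from omasum, 4504 from all 3 chambers, 37 in opposite directions and 916 among chambers, and 67 for age. The pairing is not in the labels, and the block moved only the count for age by over 1.5 times.

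Leaving out each library in turn gave 6349 to 8427 against the mean, 5421 to 7111 against rumen, 5254 to 6511 against reticulum, 5960 to 7698 against omasum and 3623 to 4767 against all 3 chambers. Genes unequal among chambers ran from 159 to 1541 (159, 280 and 246 without rumen library 1, 2 and 3; 487, 647 and 448 without omasum library 1, 2 and 3; 1541 without reticulum library 3), and genes in opposite directions from 19 to 84. Lower genes missing rumen ran from 539 to 1001, those missing reticulum from 133 to 433 and those missing omasum from 135 to 338. The change with age ran from 1 to 78: without d5 library 1, 2 and 3 it was 62, 16 and 4 for the abomasum and 3, 2 and 4 for the rumen, without reticulum d5 library 2 and 3 it was 3 and 5, without abomasum d10 library 1, 2 and 3 it was 78, 1 and 3, without rumen d10 library 1 and 3 it was 4 and 6, and without reticulum d10 library 1 and 2 it was 9 and 11.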
